A study of Mus musculus with 8 samples.

Results

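The genes described here are the 7 transcripts *Dpt*, *Cd34*, *Pi16*, *Ly6a*, *Dpp4*, *Clec3b* and *Fap*, which are used as markers of universal fibroblasts. They were taken by gene symbol from the 28001 genes listed in the count tables, and their raw transcript counts were read in all 8 single-cell libraries of embryonic mouse forelimbs. The 6 sorted libraries held tdTomato+ cells of C57BL/6J embryos homozygous for a *Hic1* CreERT2 allele and a Rosa26 LSL tdTomato reporter. Tamoxifen (7.5 mg) was given to the dams at embryonic day (E) 10, so the reporter marks cells that expressed *Hic1* at that time and their progeny. The sorted groups were daily stages from E11.5 through E14.5, the proximal part of the E16.5 forelimb (distal stylopod to proximal zeugopod, with the elbow) and its distal part (distal zeugopod and autopod), each a single library. The remaining 2 libraries, whole 1 and whole 2, were lineage-negative cells of whole E11.5 limbs with the same alleles. Limbs of several embryos were pooled, and cells carrying CD45, CD117, CD31, CD11b, F4/80 or Ter119 were removed in the sort.

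Universal fibroblasts are connective tissue cells found in most adult organs, from which more specialised fibroblasts are thought to derive. They carry *Dpt* together with either *Pi16* or *Col15a1*, and the *Pi16* form lies in the adventitia around vessels and in fascia. *Dpt* encodes dermatopontin, a matrix protein that binds collagen fibrils. *Clec3b* encodes tetranectin, a secreted lectin that binds plasminogen, and *Pi16* encodes a membrane-attached peptidase inhibitor. *Cd34* is a sialomucin of the cell surface that endothelial and haematopoietic cells also carry, and *Ly6a* encodes Sca-1, a GPI-anchored surface protein. *Dpp4* (CD26) and *Fap* encode related serine peptidases of the cell surface.

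A cell entered with at least 3000 unique molecular identifiers (UMIs, 1 per captured transcript) and at most 10% mitochondrial UMIs, which left 53085 of 57469 barcodes. The libraries held 3165 to 11109 such cells, and the median cell had 6788 UMIs at E13.5, the lowest, and 18473 in the E16.5 proximal library, the highest. Reagent kit v2 was used through E13.5 and v3 afterwards, so the step from E13.5 to E14.5 cannot be told apart from the kit. Limbs were dissociated with Dispase at E11.5 and E12.5 and with collagenase, pronase and DNase from E13.5. The step from E12.5 to E13.5 cannot be told apart from that change. Any 2 libraries shared at most 48 cell barcodes. tdTomato was at 427 to 1341 CPM (counts per 1000000 UMIs of the library) in sorted libraries and at 3.88 and 4.21 CPM in whole 1 and whole 2, whose labels give tdTomato+ and tdTomato- cells. Markers of the epidermis (7 keratin and adhesion genes) summed to 3470 CPM at E16.5 proximal, 623 distally and 51 to 105 in the earlier sorted libraries. The 7 endothelial markers summed to 6.16 to 22.2 CPM and the 6 immune markers to 0.551 to 6.78 CPM over all libraries.

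The 7 loci lie on 5 chromosomes of the GRCm38.p6 assembly: *Dpt* on chromosome 1 (164796663 to 164824274), *Cd34* on chromosome 1 (194938821 to 194961292), *Pi16* on chromosome 17 (29318796 to 29328903), *Ly6a* on chromosome 15 (74994877 to 74998031), *Clec3b* on chromosome 9 (123150946 to 123157432), *Dpp4* on chromosome 2 (62330073 to 62412315) and *Fap* on chromosome 2 (62500936 to 62575509). *Dpp4* and *Fap* are thus 88620 bases apart, with *Gm13561* and *Gcg* between them. RefSeq promoter windows were matched for 4 members (*Dpt*, *Cd34*, *Pi16* and *Dpp4*). The 250 bases before the transcript start used by the promoter table are shown for 3 of them because *Dpt* and *Pi16* define the cell class followed below, and *Dpp4* differed between limb parts in the opposite direction to *Pi16*. Capitals mark matches to TATAAA, to the E-box CANNTG, to the AP-1 motif TGANTCA, to the TEAD motif GGAATG or to GGGCANCC, part of an EBF-like site, on either strand. They run from 5′ to 3′ on the strand of the gene, for *Dpt* chr1:164796413-164796662 (plus strand), for *Pi16* chr17:29318632-29318881 (plus strand) and for *Dpp4* chr2:62412232-62412481 (minus strand). For *Pi16* and *Dpp4* that start lies inside the gene bounds given above, so the end of each stretch overlaps the locus.
Dpt: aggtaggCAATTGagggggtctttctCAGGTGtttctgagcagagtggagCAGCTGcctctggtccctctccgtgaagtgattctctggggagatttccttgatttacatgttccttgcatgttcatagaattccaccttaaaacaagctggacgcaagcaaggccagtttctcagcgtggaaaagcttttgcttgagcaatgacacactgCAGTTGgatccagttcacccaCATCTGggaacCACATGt
Pi16: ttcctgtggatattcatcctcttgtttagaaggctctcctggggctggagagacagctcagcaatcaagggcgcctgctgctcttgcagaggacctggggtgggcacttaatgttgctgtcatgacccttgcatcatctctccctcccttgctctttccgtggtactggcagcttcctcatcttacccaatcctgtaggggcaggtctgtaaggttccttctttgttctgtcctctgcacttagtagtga
Dpp4: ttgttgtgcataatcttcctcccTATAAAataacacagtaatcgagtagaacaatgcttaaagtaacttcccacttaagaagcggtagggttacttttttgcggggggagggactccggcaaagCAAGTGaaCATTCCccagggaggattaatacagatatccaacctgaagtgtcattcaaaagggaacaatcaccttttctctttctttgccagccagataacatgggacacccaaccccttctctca
*Dpt* held 6 E-box matches in this stretch and *Dpp4* held 1, beside 1 TATAAA match and 1 TEAD match. *Pi16* held no match there. Just after the start *Pi16* held 1 E-box and *Dpt* held 1 E-box and 1 TATAAA match, and the *Cd34* window held none of the 5 motifs. Over the full windows of 300 bases, an E-box was present in 72.3% of all 32851 RefSeq promoters, TATAAA in 13.6%, the TEAD motif in 14.7%, the AP-1 motif in 7.81% and GGGCANCC in 5.46%. A match is a description of the letters and shows no binding.

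Levels over time were examined first, to ask when each marker appears in tdTomato+ cells. All 7 members had their highest level in an E16.5 library, and 5 of them stayed below 1 CPM through E13.5. Counts of UMIs at the 3′ end do not scale with transcript length, so levels are set side by side between genes. No test was made here, since each group was 1 library. Intervals in parentheses are exact 95% intervals that cover counting error only.

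Of the secreted and matrix genes, *Dpt* had 0 UMIs at E11.5, which allows up to 0.0952 CPM at 3 UMIs. On the next 3 days its levels were 0.0452 CPM (2 UMIs), 0.727 CPM (33 UMIs) and 18.7 CPM (18.0 to 19.5), and at E16.5 they were 123 CPM proximally and 137 CPM distally. From E11.5 through E14.5 the daily levels of *Clec3b* were 0.413, 0.158, 0.639 and 6.66 CPM, and at E16.5 they were 186 CPM proximally and 179 CPM distally. Both were thus near 0 through E13.5 and among the 4 most abundant members at E16.5. *Pi16* stood at 0.667, 0.972, 0.727 and 0.754 CPM over the same 4 days, against 12.7 CPM proximally and 36.1 CPM distally at E16.5. The 4 early *Pi16* values had overlapping intervals, and up to E13.5 no cell held more than 1 *Pi16* UMI.

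Among the surface proteins, *Cd34* had daily levels of 1.17, 4.18, 9.98 and 28.9 CPM from E11.5 through E14.5, and of 148 CPM proximally and 154 CPM distally at E16.5. Its interval at each stage lay above that of the stage before. *Ly6a* had 0.286, 0.271, 0.154 and 0.157 CPM on those days (21 UMIs in 134002955 on the last), and then 44.0 CPM proximally and 37.6 CPM distally at E16.5. *Ly6a* belongs to a family of close copies that includes *Ly6c1*, and reads shared between such copies were not examined.

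Of the peptidases, *Fap* had 3.02, 3.60, 5.46 and 23.1 CPM from E11.5 through E14.5, and 98.3 CPM proximally and 75.0 CPM distally at E16.5. *Dpp4* had 0.159, 0.136, 0.331 and 1.00 CPM (134 UMIs on the last day), and 21.7 CPM proximally and 9.32 CPM distally at E16.5. *Fap* was therefore the most abundant member in the sorted E11.5 library, while *Dpp4* was the least abundant in the E16.5 distal library.

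**Figure D1:**
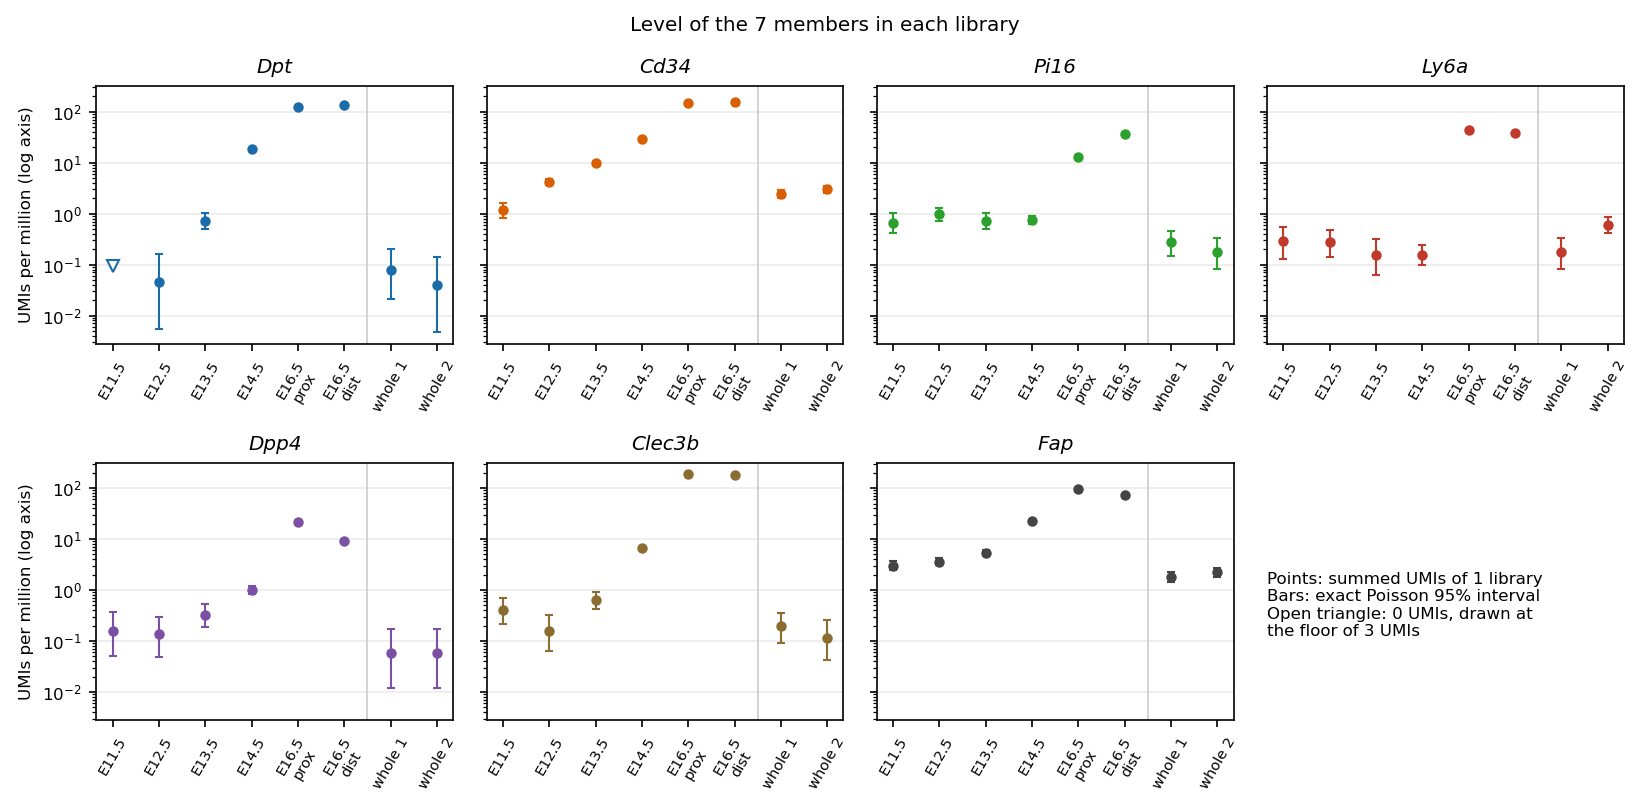
Level in CPM (log axis) of each member in each of the 8 libraries, with exact Poisson 95% intervals. Each member is highest in an E16.5 library, and *Pi16* and *Ly6a* lie at or below 0.972 CPM in the 4 sorted libraries up to E14.5.

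Whole limb cells at E11.5 held few transcripts of most members. Whole 1 and whole 2 had 0.0780 and 0.0390 CPM of *Dpt*, 0.273 and 0.175 of *Pi16*, 0.0585 and 0.0585 of *Dpp4*, 0.195 and 0.117 of *Clec3b*, and 0.175 and 0.604 of *Ly6a*. *Cd34* stood at 2.44 and 3.002 CPM there, above the sorted E11.5 library, and *Fap* at 1.81 and 2.22, below it. In whole 1, 109 of 125 *Cd34* UMIs (87.2%) lay in 34 cells that held at least 2 UMIs of the endothelial markers, and in whole 2 this was 139 of 154 UMIs (90.3%) in 41 cells. In the sorted E11.5 library 11 of 37 *Cd34* UMIs did. Without such cells *Cd34* was at 0.315 and 0.295 CPM in whole 1 and whole 2 and at 0.829 (0.541 to 1.21) in sorted E11.5 cells.

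To order the members, the level at E14.5 was expressed as a percent of that at E16.5 proximal, both made with the v3 kit. *Fap* had reached 23.5% (22.6 to 24.4) of its E16.5 proximal level, *Cd34* 19.6% (18.9 to 20.2) and *Dpt* 15.2% (14.6 to 15.8). *Pi16* stood at 5.92% (4.81 to 7.22), *Dpp4* at 4.61% (3.85 to 5.47), *Clec3b* at 3.58% (3.35 to 3.83) and *Ly6a* at 0.356% (0.220 to 0.545). Each neighbour pair in this order was separated by its counting intervals except *Pi16* and *Dpp4*, which changed places when cells were thinned to 3000 UMIs or when epithelial-like cells were left out. The order rests on the proximal library as reference. At E16.5 *Pi16* was at 12.7 CPM proximally and 36.1 distally, and *Dpp4* at 21.7 and 9.32. A distal reference would thus lower the percent of *Pi16* and raise that of *Dpp4*. *Pi16* already stood at 5.24%, 7.64% and 5.71% of its E16.5 proximal level at E11.5, E12.5 and E13.5. Its place in the order therefore reflects a flat low level and not an onset by E14.5. A level of at least 1 CPM was first reached at E11.5 by *Fap* and, with an interval that includes 1 (0.827 to 1.62), by *Cd34*, at E14.5 by *Dpt* and *Clec3b*, and at E16.5 by *Pi16*, *Ly6a* and *Dpp4*. *Dpp4* missed it narrowly at E14.5 (0.99998 CPM, 0.838 to 1.18). The intervals of *Pi16* at E11.5, E12.5 and E13.5 and of *Dpt* at E13.5 also include 1. Without cells of at least 2 endothelial marker UMIs *Cd34* reached 1 CPM at E12.5 (3.88 CPM), and *Pi16* stood at 9.91% of its E16.5 proximal level at E14.5. At E16.5 such cells were not shown to be endothelial, as described below. After thinning *Dpp4* stood at 7.23% and *Ly6a* at 0.672%.

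The members also differed in the size of their ratio over each step. The step from E14.5 to E16.5 spans more time than that from E13.5 to E14.5, so the steps were not ranked against each other. From E13.5 to E14.5 *Dpt* was 25.7-fold higher (18.3 to 37.5) and *Clec3b* 10.4-fold (7.20 to 15.6). *Fap* was 4.23-fold, *Dpp4* 3.03-fold and *Cd34* 2.90-fold higher over that step, while *Pi16* had a ratio of 1.04 (0.694 to 1.59) and *Ly6a* of 1.02 (0.416 to 2.83). From E14.5 to E16.5 proximal the ratios ran from 4.25 for *Fap* and 5.11 for *Cd34*, through 6.58 for *Dpt*, 16.9 for *Pi16*, 21.7 for *Dpp4* and 27.9 for *Clec3b*, to 281 (184 to 454) for *Ly6a*. *Fap* and *Cd34*, the most abundant members at E11.5, had the smallest ratios in this last step. The E16.5 proximal library lacks the autopod, so stage and part of limb cannot be told apart in it.

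**Figure D2:**
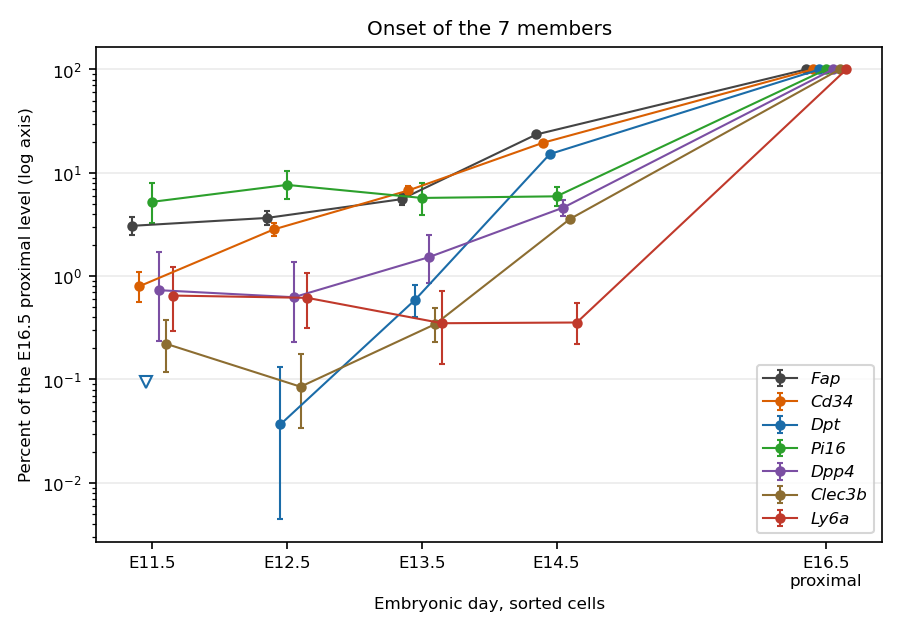
Level of each member as a percent of its E16.5 proximal level (log axis) by embryonic day in the 5 sorted time-course libraries, with exact 95% intervals. At E14.5 the members range from 23.5% (*Fap*) to 0.356% (*Ly6a*), and *Dpt* goes from 0 UMIs at E11.5 (open triangle, drawn at the upper limit of its interval) to 15.2%.

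For comparison with other genes, ratios were taken on CPM + 1, keeping genes that reached 5 CPM in either library. From E13.5 to E14.5, 4 members passed that filter (*Dpt*, *Cd34*, *Clec3b* and *Fap*) and all 4 were at least 2-fold higher, as were 4.47% of the 10522 genes. From E14.5 to E16.5 proximal, 7 of 7 were at least 2-fold higher, against 7.09% of 10493 genes, with a median log2 ratio of 2.97 over the members and −0.20 over all genes. From E11.5 to E16.5 proximal, 7 of 7 were at least 2-fold higher and none lower, against 13.8% higher and 28% lower of 10903 genes. *Dpt* and *Clec3b* passed the filter in the E13.5 comparison, *Pi16*, *Ly6a* and *Dpp4* in that of E14.5 with E16.5, and all 7 members in that of E11.5 with E16.5, only through the later library where they are high. These counts and medians were therefore largely fixed by the filter and give no support for the set.

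A list of 36 further genes of fibroblast programmes was followed in the same way. Between E13.5 and E14.5, 12 of 28 tested genes were at least 2-fold higher and 1 was lower (5.07% of all genes were lower), with a median log2 ratio of 0.72 against −0.18 over all genes. The largest ratios were those of *Col14a1* (7.47 to 80.4 CPM), a fibril-associated collagen, *Mfap5* (4.32 to 38.5 CPM), a microfibril protein, *C1qtnf3* (5.07 to 39.2 CPM) and *Penk* (18.9 to 73.2 CPM), the proenkephalin gene, while *Gfpt2* (34.7 to 12.5 CPM) was lower. Between E14.5 and E16.5 proximal, 17 of 33 were at least 2-fold higher and 3 lower (6.46% of all genes were lower). *Entpd2*, an ectonucleotidase, went from 1.10 to 38.2 CPM, *Mfap5* from 38.5 to 408 CPM, *Has1*, a hyaluronan synthase, from 0.425 to 12.3 CPM and *Ly6c1* from 1.35 to 13.4 CPM. The lower genes were *Wnt5a* (142 to 56.2 CPM), *Osr1* (109 to 46.8 CPM), a transcription factor of embryonic connective tissue, and *Ackr3* (48.3 to 20.7 CPM). The next lowest, *Podn*, had a ratio of 0.67 on CPM + 1 and was not past the threshold. The study itself picked some genes of this list on the same libraries, so the counts are not independent evidence of a direction. Listed genes below 5 CPM in the earlier library, such as *Entpd2*, *Has1* and *Ly6c1*, also entered only through the library where they are high.

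The share of cells with a UMI was then taken with every cell thinned to 3000 UMIs, since depth differed between libraries. At E14.5 the shares were 6.47% for *Cd34*, 5.74% for *Fap*, 3.54% for *Dpt* and 1.69% for *Clec3b*, against 18.9%, 21.7%, 9.63% and 5.35% unthinned. *Dpp4*, *Pi16* and *Ly6a* were seen in 0.322%, 0.215% and 0.0716% of the thinned E14.5 cells. None of these 3 genes had a thinned UMI in 269 chondrocyte-like cells of that library, which allows a share of up to 1.12%, so these shares cannot be separated from background. *Cd34* was in 1.12% of the chondrocyte-like cells, whose median depth was 14069 UMIs against 14333 for the library.

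At E16.5 proximal the thinned shares were 29.0% for *Cd34*, 26.5% for *Clec3b*, 23.3% for *Fap*, 18.7% for *Dpt*, 4.90% for *Ly6a*, 4.01% for *Dpp4* and 2.38% for *Pi16* (unthinned 59.5%, 46.9%, 60.4%, 35.9%, 10.6%, 17.4% and 6.98%). At E16.5 distal they were 25.9%, 24.2%, 17.7%, 21.7%, 4.96%, 2.15% and 5.09% in the same order of genes. In the 1021 proximal chondrocyte-like cells (median depth 17124 UMIs) the shares were between 0.0979% (*Pi16* and *Dpp4*) and 4.90% (*Fap*). In the 942 proximal epithelial-like cells (median depth 37428 UMIs) they were between 0.425% (*Pi16*) and 8.17% (*Dpp4*). *Dpp4* was therefore in a larger share of epithelial-like than of all cells, whereas the other members were in a smaller share of both classes.

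Whether the markers shared cells was asked at E14.5 and E16.5. At least 3 of the 7 members were found in 33 of 8381 cells of the E14.5 library (0.394%, 0.271 to 0.553), in 1550 of 11109 E16.5 proximal cells (13.95%, 13.3 to 14.6) and in 1113 of 8447 E16.5 distal cells (13.2%, 12.5 to 13.9). In the libraries before E14.5, whole limb included, no thinned cell had 3. In the proximal chondrocyte-like and epithelial-like cells the share was 0.686% and 1.17%. At least 5 members were found in 240 proximal and 146 distal cells, and all 7 in 9 and 5 cells. None of the 7 was found in 84.7% of the E14.5 cells and, at E16.5, in 43.9% of proximal and 46.4% of distal ones.

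If the genes were independent of each other in a library, at least 3 members would be expected in 0.0323% of the thinned E14.5 cells and, at E16.5, in 7.03% of proximal and 6.00% of distal ones, all below the shares found. With all UMIs of each cell the shares were 4.32%, 45.4% and 40.2%, and the independent expectation was 0.979%, 44.7% and 39.3%. At full depth the E16.5 shares with at least 3 members were thus close to that expectation, which covers this cut only. Single pairs of members stayed above independence (21 of 21 pairs in each E16.5 library, with median ratios of 1.51 proximally and 1.60 distally). With all UMIs 18.2% of proximal and 19.3% of distal cells had none of the 7, and 322 and 165 cells had all 7. The independent expectation of those counts was not computed.

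**Figure D3:**
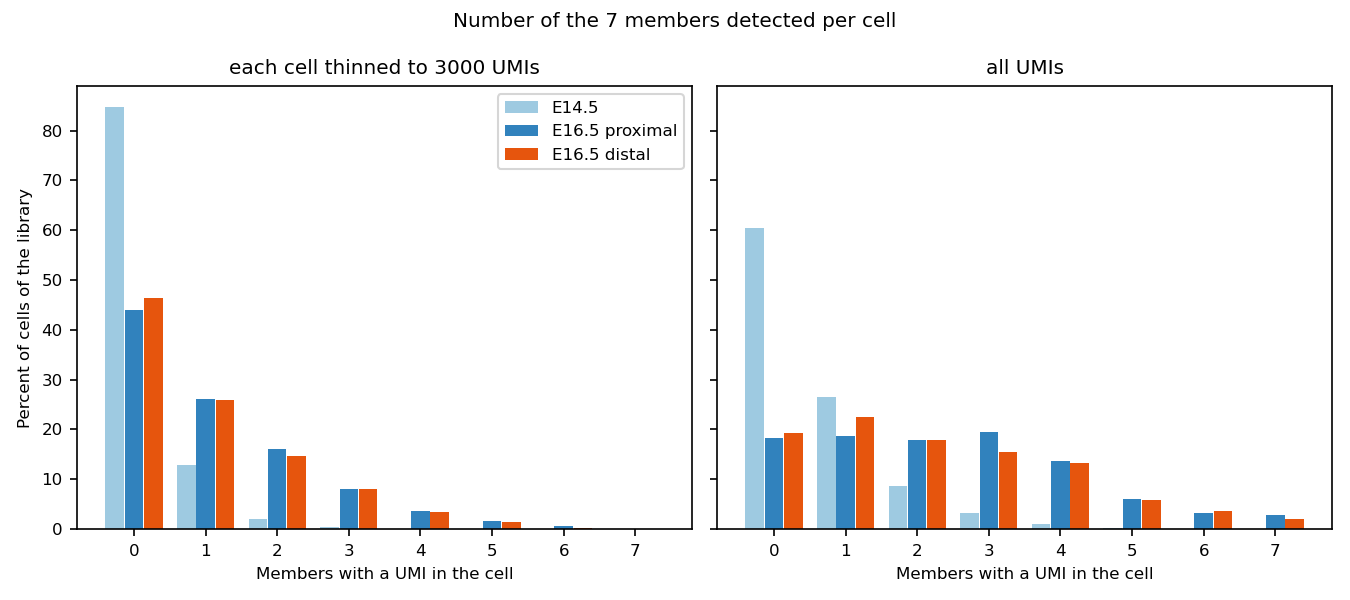
Percent of cells at E14.5 and in both E16.5 libraries by the number of members with a UMI, after thinning to 3000 UMIs (left) and with all UMIs (right). At 3000 UMIs 84.7% of E14.5 cells and 43.9% and 46.4% of E16.5 cells have none.

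Taken pair by pair, 21 of 21 pairs were found together in more cells than independence gives in both E16.5 libraries, and 15 of 21 at E14.5, where several expected numbers were below 1 cell. With all UMIs it was 21 of 21 pairs at E14.5, with a median ratio of 2.74. In the E16.5 libraries the highest ratio was that of *Pi16* and *Ly6a*, which shared 149 cells at E16.5 proximal against 12.9 expected (11.5-fold) and 181 distally against 21.3 (8.49-fold). *Pi16* and *Dpp4* had ratios of 6.60 and 5.07, and *Ly6a* and *Dpp4* of 6.18 and 5.32. The lowest ratios were those of *Pi16* and *Fap* (1.19 and 1.25). *Fap* had ratios of 1.19 to 1.57 with the other members at E16.5 proximal and of 1.25 to 1.80 distally. Among fibroblast-like cells alone (clusters described below), 16 of 21 pairs were above 1 in each library and the median ratio was 1.02 at E16.5 proximal and 1.06 distally, near the value of independent genes. *Pi16* with *Ly6a* had ratios of 1.42 and 1.20 there.

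The class of cells with both *Dpt* and *Pi16* held 3 thinned E14.5 cells, and at E16.5 it held 160 proximal (1.44%) and 178 distal cells (2.11%). In the proximal class 90.0% (84.3 to 94.2) had *Clec3b*, 82.5% *Cd34*, 67.5% *Ly6a*, 32.5% *Dpp4* and 26.9% *Fap*. In the 1913 proximal cells with *Dpt* and without *Pi16* the shares were 51.4% for *Clec3b*, 50.2% for *Cd34*, 12.96% for *Ly6a*, 9.10% for *Dpp4* and 30.4% for *Fap*. The first 4 were thus detected in a larger share of cells where *Pi16* was also detected, and *Fap* was not. The distal class had 86.0% *Clec3b*, 72.5% *Cd34*, 43.8% *Ly6a*, 15.2% *Dpp4* and 27.5% *Fap*, against 39.9%, 39.3%, 6.59%, 3.93% and 23.0% in the 1654 distal cells with *Dpt* and without *Pi16*. The median depths of the proximal classes were 24256.5 and 19414 UMIs before thinning.

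Of cells with a *Pi16* UMI, 60.6% (54.4 to 66.5) had *Dpt* at E16.5 proximal and 41.4% (36.7 to 46.2) distally. Within fibroblast-like cells these shares were 79.8% (72.8 to 85.6) and 39.1% (33.4 to 45.1). Such cells were mostly of cluster 2 proximally and of cluster 15 distally (both described below), so this sets 1 cluster against the other. At full depth the shares over all cells were 77.2% and 68.6%. *Col15a1*, which encodes a basement membrane collagen and marks the other universal form, was at 0.349 CPM at E11.5 and 7.20 CPM at E14.5, and at E16.5 had 9.47 CPM proximally and 19.1 CPM distally. It was found in 1.25% (0.152 to 4.44) of proximal and 1.69% (0.349 to 4.85) of distal cells with both *Dpt* and *Pi16*. In cells with *Dpt* and without *Pi16* the shares of *Col15a1* were 1.88% and 4.35%. In cells with neither gene they were 2.56% and 4.31%, so cells with *Dpt* alone were not richer in *Col15a1* than those. The ratios of *Col15a1* to independence with the 7 members were 0.465 to 0.838 at E16.5 proximal and 0.507 to 1.07 distally.

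To see which cells held the markers, cells were clustered without the 7 members and named from other genes. At E16.5 there were 23 clusters, and 6 of the 7 members had their highest level in a fibroblast-like cluster. At Leiden resolution 0.5 this held for 1 of 7 and at resolution 2 for 6 of 7. Cluster 2 (628 cells, 576 of them proximal; led by *Akr1c18*, *Wnt2*, *Lrrn4cl*, *Efemp1* and *Ptgs2*) had 7 of 7 fibroblast markers raised and held the highest levels of *Dpt* (779 CPM), *Clec3b* (806 CPM), *Ly6a* (502 CPM) and *Dpp4* (146 CPM). Cluster 15 (541 cells, 516 of them distal; led by *Spink6*, *Cldn3*, *Olfml2a*, *Nts* and *Dact2*) had 6 of 7 raised and held the highest levels of *Pi16* (321 CPM) and *Cd34* (562 CPM). Since each consists mostly of cells of 1 library, cluster and library cannot be told apart. At least 3 members were found in 83.6% of the cells of cluster 2 and in 68.8% of those of cluster 15.

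*Fap* had another distribution. Its highest level, 194 CPM, was in unnamed cluster 3 (2584 cells), which was led by the muscle fibre genes *Acta1*, *Tnnc2*, *Actc1* and *Mylpf* and *5330417C22Rik*. At resolution 2 it was instead highest in a cluster of 1213 cells led by *Alx1*, *Angptl7* and *Adora2b* (208 CPM), and *Actc1*, *Acta1* and *Tnnc2* led a separate cluster of 150 cells. The muscle fibre markers summed to 76.0 CPM at E16.5 proximal and 24.9 distally, and their part in this result was not tested. Cluster 3 held 37.8% of the proximal *Fap* UMIs and cluster 2 held 9.003%. By contrast cluster 2 held 65.7% of the proximal *Pi16*, 68.1% of the *Ly6a* and 36.5% of the *Dpt* UMIs, and cluster 15 held 65.3% of the distal *Pi16* and 55.0% of the distal *Ly6a* UMIs. *Pi16* and *Ly6a* were thus concentrated in clusters with 5.18% of the proximal and 6.11% of the distal cells.

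Other clusters held the members in other proportions. Unnamed cluster 16 (1682 cells; led by *Sfrp4*, *Prss12*, *Cxcl13*, *Cbln2* and *Wfikkn2*) had 534 CPM of *Clec3b* and 354 of *Cd34* beside 13.9 of *Pi16*, and 35.0% of its cells had at least 3 members. Unnamed cluster 4 (667 cells; led by the chemokine genes *Ccl7*, *Cxcl5*, *Cxcl2* and *Ccl2* and by *Cpxm2*) had 415 CPM of *Dpt* and 17.6 of *Pi16*. Dermal fibroblast-like cluster 11 had 177 CPM of *Dpt* and 1.17 of *Pi16*. Epithelial-like cluster 17 had 53.2 CPM of *Dpp4*, below cluster 2 only, with 11.3 of *Dpt* and 2.52 of *Pi16*, and held 28.8% of the proximal *Dpp4* UMIs.

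**Figure D4:**
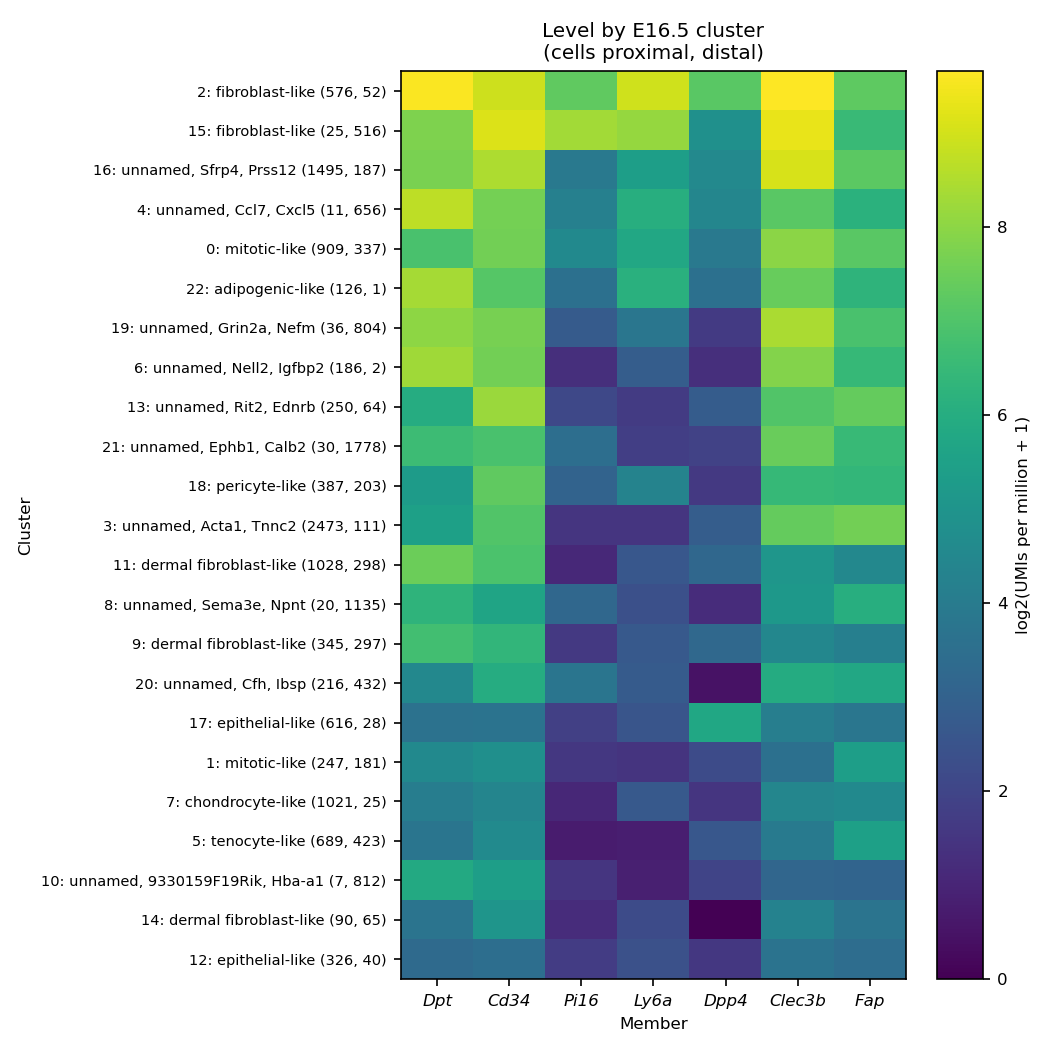
Level of the 7 members (columns, log2 of CPM + 1) in the 23 E16.5 clusters (rows, with cell numbers in the proximal and distal libraries). *Pi16* and *Ly6a* are high in clusters 2 and 15, whereas *Cd34*, *Clec3b* and *Fap* extend over many clusters and *Dpp4* also over epithelial-like cluster 17.

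At E14.5 the members were spread over other clusters. *Dpt* was highest in dermal fibroblast-like cluster 2 of that library (75.5 CPM, 931 cells), which held 46.8% of its UMIs. *Cd34* (93.4 CPM), *Clec3b* (27.4 CPM) and *Fap* (62.7 CPM) were highest in unnamed cluster 1 (809 cells; led by *Sfrp4*, *Wnt2*, *Prss12*, *Cxcl5* and *2610016A17Rik*). That cluster held 20 of the 33 cells with at least 3 members, and the dermal fibroblast-like cluster held 12. Among clusters of at least 50 cells *Dpp4* did not exceed 5.88 CPM, *Pi16* 2.71 CPM (8 UMIs) and *Ly6a* 0.579 CPM (9 UMIs). In 15 endothelial-like cells *Cd34* was at 265 CPM. These classes rest on the resolution, since at resolution 2 *Dpt* was highest in a fibroblast-like cluster (172 CPM, 378 cells), *Clec3b* in a pericyte-like cluster (39.9 CPM) and *Dpp4* reached 9.98 CPM.

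Over the 23 E16.5 clusters, Pearson correlations of log2 levels were highest between *Cd34* and *Clec3b* (0.90), *Pi16* and *Ly6a* (0.88) and *Clec3b* and *Fap* (0.85), and lowest between *Dpp4* and *Fap* (0.28). The clusters share the same 2 libraries, so these values only describe them. Of 8564 genes, those most like *Dpt* were *Nova1* (0.90), *Sdpr* (0.88) and *Mrgprf* (0.85), and those most like *Cd34* were *Emilin2* (0.95), *Mrgprf* (0.93) and *AW551984* (0.93). The genes nearest to *Pi16* were *Gm15675* (0.94), *Cd55* (0.91), a complement regulator, and *Stmn4* (0.89). For *Ly6a* they were *Wnt2* (0.92), *Tek* (0.89), which encodes an angiopoietin receptor, and *Ly6c1* (0.89). For *Clec3b* they were *Col6a6*, *Tnxb* and *Mfap5*, matrix genes with 0.96 each, and for *Fap* *Agtr2*, *Col6a6* and *Plagl1* (0.90 each). *Dpp4* had weaker neighbours, *Dhrs7* (0.86), *Lrrn4cl* (0.80) and *Klf6* (0.76).

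The proximal and distal parts of the E16.5 limb were compared next. *Pi16* was higher distally and *Dpp4* higher proximally, and the other 5 members differed by less than 1.5-fold (17.2% of all genes were at least 1.5-fold higher and 8.41% lower distally, on CPM + 1). *Pi16* was at 12.7 CPM proximally and 36.1 distally, a ratio of 2.84 (2.72 to 2.97). *Dpp4* was at 21.7 and 9.32 CPM, a ratio of 0.430 (0.405 to 0.455). For *Fap* the ratio was 0.763 (0.747 to 0.780), for *Ly6a* 0.854 (0.827 to 0.882), for *Clec3b* 0.965 (0.951 to 0.980), for *Cd34* 1.04 (1.02 to 1.06) and for *Dpt* 1.11 (1.09 to 1.13). On CPM + 1 *Pi16* was the 1 member at least 2-fold higher distally, against 4.42% of 10352 genes, and *Dpp4* the 1 member at least 2-fold lower, against 4.39%. The intervals do not include the spread between limbs, and the libraries also differed in software version (Cell Ranger 3.0.2 proximally and 6.0.1 distally). The thinned share of *Cd34* cells was lower distally while its level was higher, and that of *Ly6a* cells was slightly higher (4.96% against 4.90%) while its level was lower, so no order was read for either.

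Epithelial-like cells took 15.3% of the proximal and 1.54% of the distal UMIs. Without them the ratios were 2.51 for *Pi16*, 0.489 for *Dpp4*, 0.668 for *Fap*, 0.742 for *Ly6a*, 0.840 for *Clec3b*, 0.905 for *Cd34* and 0.968 for *Dpt*, so *Cd34* and *Dpt* turned direction and 6 of 7 members were then lower distally, against 4 of 7 over all cells. Without chondrocyte-like cells as well, *Fap* had a ratio of 0.618 (0.605 to 0.632), past 1.5-fold. Among fibroblast-like cells alone (568 distal, of which 516 in cluster 15, and 601 proximal, of which 576 in cluster 2) *Dpt* was at 294 CPM distally and 737 proximally, a ratio of 0.399 (0.384 to 0.414). That ratio sets cluster 15 against cluster 2, and within cluster 2 *Dpt* was higher distally (1005 against 761 CPM, a ratio of 1.32, 1.24 to 1.40). *Pi16* had a ratio of 2.37 (2.24 to 2.50) and *Cd34* of 1.16 in these cells. *Dpp4* had a ratio of 0.354 and *Ly6a* of 0.616.

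Cells with at least 2 endothelial marker UMIs were 7.63% of the proximal and 8.57% of the distal cells, and held 50.1% and 29.3% of the *Pi16* UMIs and 48.1% and 33.3% of the *Ly6a* UMIs. Without them *Ly6a* was at 25.3 CPM proximally and 28.1 distally, so its direction turned (a ratio of 1.11). *Pi16* was then at 7.04 and 28.7 CPM, a ratio of 4.08. The part of these markers in the results was not tested, and *Tek*, one of them, is among the genes most like *Ly6a* over clusters. *Tek* was the highest of the 7 endothelial markers at E16.5, with 7.48 of 19.3 CPM proximally and 9.77 of 20.7 CPM distally. No E16.5 cluster was named endothelial-like. The cut was made on UMIs before thinning, which deeper cells reach more easily. The cells left out therefore cannot be taken as endothelial.

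**Figure D5:**
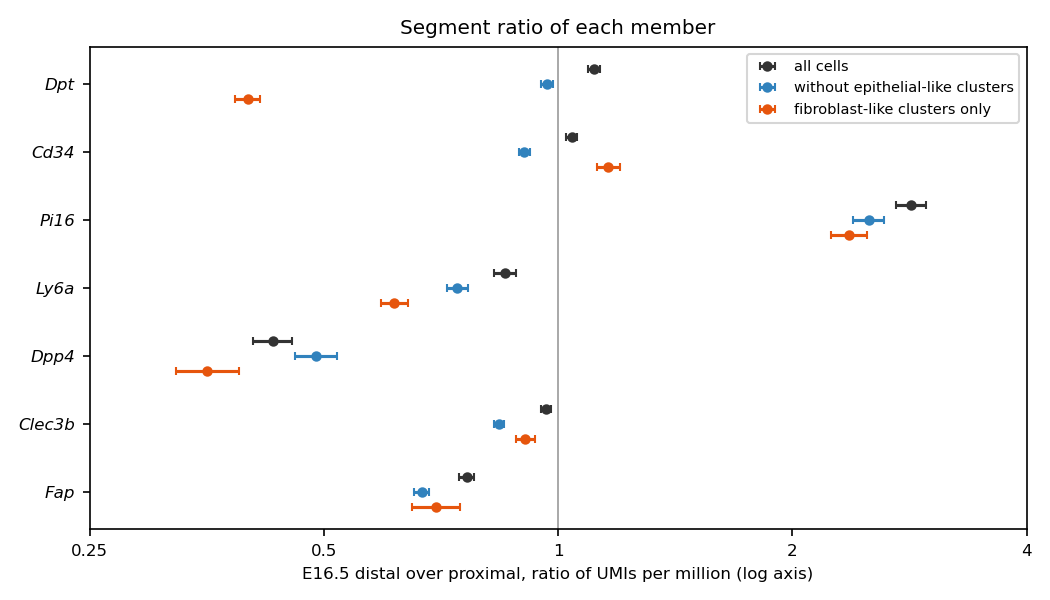
Ratio of distal over proximal CPM at E16.5 (log axis) for each member over all cells, without epithelial-like clusters, and in fibroblast-like clusters only, with exact 95% intervals. *Pi16* lies between 2.37 and 2.84 and *Dpp4* between 0.354 and 0.489 in all 3 sets, while *Dpt* goes from 1.11 to 0.399. The sets overlap, and the fibroblast-like set mostly compares cluster 15 distally with cluster 2 proximally. Within cluster 2 *Dpp4* was higher distally (ratio 1.80, 1.58 to 2.05).

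Single clusters were compared where they held at least 50 cells of both parts and a proximal UMI of the gene. *Pi16* was higher distally in 9 of 11 such clusters, and in 5 of these the interval lay above 1, in none below it. Unnamed cluster 20 held 2.15% of the distal *Pi16* UMIs and none of the proximal ones, so it gave no ratio. In fibroblast-like cluster 2 *Pi16* was at 325 CPM in 52 distal cells and 142 CPM in 576 proximal cells. In pericyte-like cells it was at 13.3 and 4.21 CPM. *Dpp4* did not keep its direction within clusters, with 3 intervals above 1 and 2 below of 11 clusters, and in cluster 2 it was higher distally (248 against 138 CPM, a ratio of 1.80, 1.58 to 2.05). *Ly6a* in pericyte-like cells was at 38.4 CPM distally and 7.64 CPM proximally, a ratio of 5.03 (3.80 to 6.71), against 0.854 over all cells. *Clec3b* (134 against 59.8 CPM) and *Dpt* (60.4 against 26.1 CPM) were also higher distally in pericyte-like cells. In dermal fibroblast-like cluster 11 *Ly6a* was lower distally (0.627 against 6.49 CPM), as was *Dpt* (97.4 against 199 CPM).

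Of the 36 listed fibroblast programme genes, 33 were tested between the parts. *Podn* (3.50 CPM proximally, 11.03 distally) and *Cd55* (35.4 and 79.9 CPM) were at least 2-fold higher distally. These are 2 of 33, against 4.42% of all genes. The 4 of 33 at least 2-fold lower compare with 4.39% of all genes. *Entpd2* (38.2 and 8.95 CPM), *Efemp1* (37.7 and 16.1 CPM), *Sfrp4* (11.4 and 4.78 CPM) and *Wnt2* (28.1 and 13.5 CPM) made up these 4. *Tgfbr2* and *Col15a1* (ratios of 1.93 and 1.92 on CPM + 1) did not reach the threshold. The median log2 ratio of the list was 0.25, that of the 7 members −0.05 and that of all genes 0.13.

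At E11.5 the sorted library could be tested against the 2 whole limb libraries, on UMIs summed over 3156 sorted, 5104 whole 1 and 5332 whole 2 cells after leaving out clusters named glial-, erythroid-, endothelial-, epithelial-, myogenic- or muscle fibre-like. The test treats the single sorted library as varying like the whole limb libraries, so an effect of that library cannot be told apart from the sort. In edgeR's quasi-likelihood test with Benjamini-Hochberg adjustment 53.3% of 15073 genes were called, 26.8% as higher and 26.5% as lower in sorted cells. Of the 7 members 5 passed the filter on low counts, and 3 were called, all higher in sorted cells. *Fap* had 95 UMIs in the sorted library and 59 and 71 in whole 1 and whole 2, a log2 ratio of 0.95 (SE 0.25, edgeR adjusted p = 0.000514). *Cd34* had 26, 17 and 14 UMIs, a log2 ratio of 1.14 (SE 0.46, edgeR adjusted p = 0.0283). *Pi16* had 20, 14 and 9 UMIs, a log2 ratio of 1.19 (SE 0.53, edgeR adjusted p = 0.0444). *Clec3b* (12, 9 and 5 UMIs, log2 ratio 1.17, edgeR adjusted p = 0.126) and *Ly6a* (9, 8 and 31 UMIs, log2 ratio −0.71, edgeR adjusted p = 0.310) were not called. *Dpt* had 0, 4 and 2 UMIs and *Dpp4* 5, 3 and 2 UMIs and were too low to test.

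The calls depended on the tool and the filter. Without the filter on low counts *Cd34* (edgeR adjusted p = 0.0867) and *Pi16* (edgeR adjusted p = 0.134) were not called. DESeq2 called none of the 3 (adjusted p of 0.136 for *Fap*, 0.384 for *Cd34* and 0.439 for *Pi16*), and limma-voom called *Fap* only (adjusted p = 0.00504). Over all filtered cells *Cd34* turned to a log2 ratio of −1.38 (edgeR adjusted p = 4.01e-06), and *Fap* was not called (0.41, edgeR adjusted p = 0.137). In that set the endothelial-like cluster of the E11.5 libraries contributed 244 *Cd34* UMIs from 43 cells.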

How the data were processed

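Single-cell suspensions were profiled with 10x Genomics 3′ libraries. The values are raw UMI counts, deposited as matrices of genes by barcodes that the authors made with Cell Ranger (3.0.2 in 5 sorted libraries and 6.0.1 for E16.5 distal, per the file headers) on a modified mm10 reference. The headers of whole 1 and whole 2 name no version. The 7 members and all gene lists were chosen with earlier results of these data known. Cells with at least 3000 UMIs, the filter of the study, and at most 10% mitochondrial UMIs, a limit set here, were kept. UMIs were summed per library and scaled to CPM. Shares used cells thinned to 3000 UMIs. Intervals are exact Poisson or Clopper-Pearson 95% intervals, and counts of 0 were given a floor of 3 UMIs per library.

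Cells were clustered without the members, without sex-linked, mitochondrial and Hox genes and without the added transgene features. *Hic1*, *Osr1*, *Pdgfra*, *Aldh1a2*, *Lhx9* and *Msx2* were also left out, while haemoglobin genes were kept. The settings were 2000 variable genes, 50 principal components, 25 neighbours and Leiden resolution 1 (scanpy 1.11.5, leidenalg 0.10.2). A cluster took the name of the class with the most raised markers (log2 fold 1 or more over other cells, seen in 10% or more of its cells), if at least 3 were raised. It stayed unnamed where another class had more markers among its 10 leading genes. Muscle fibre genes named a cluster only beside at least 2 raised myogenic markers, and otherwise left one that had them among those 10 unnamed. This scoring rule was chosen after the clusters had been seen. Scrublet did not separate doublets by its own threshold, so they were kept, and leaving out the 8% highest scores was an alternative. Named genes were the 7 members, the 3 genes most correlated with each over the E16.5 clusters at 20 CPM or more in a cluster, the 4 listed programme genes with the highest and the 4 with the lowest ratio in each comparison and the 5 leading genes of a cluster described.

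The E11.5 test used edgeR 4.0.16 (R 4.3.3) with TMM scaling, and DESeq2 1.42.0 and limma 3.58.1 as alternatives. In data simulated for this comparison with 200 of 14468 genes changed 4-fold, edgeR recovered 194 with 8 false calls, DESeq2 175 with 3 and limma-voom 193 with 11. The changed genes were drawn from those with higher counts, and far fewer were changed than the 53.3% called by edgeR in the data. These rates therefore do not carry over to the calls of the members. The UMIs of whole 1 and whole 2 differed beyond counting noise (chi-square over degrees of freedom 17.19 over 12808 genes), with a correlation of log2 CPM of 0.997. The draw of cells also adds to the chi-square, so it cannot show that whole 1 and whole 2 are separate samples. They were counted as such, and their labels name replicates 1 and 2. Nothing says that they came from separate litters, and p-values measure the spread between these samples, which may be technical.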

Additional observations from a re-analysis of the deposited data

How the results depend on the processing

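The order of onset kept all 7 places under 8 of 10 alternatives, and *Pi16* and *Dpp4* exchanged places under the other 2. All of these kept the E16.5 proximal library as reference. The place of *Pi16* reflects no onset, since its level was flat through E14.5. The highest level of each member was in an E16.5 library under all 9 alternatives run for it. *Dpt* turned to a log2 ratio of distal over proximal of −0.0469 without epithelial-like clusters, −0.0354 without the cluster led by muscle fibre genes (chosen after seeing the data), −0.17 without epithelial-like and chondrocyte-like clusters and −1.33 in fibroblast-like clusters only. *Cd34* turned to −0.14 without epithelial-like clusters, −0.27 without chondrocyte-like ones as well (unnamed cluster 8, which had raised chondrocyte markers, was kept), −0.12 as a mean over cells and −0.12 after thinning. *Ly6a* turned to 0.15 without cells of at least 2 endothelial marker UMIs. The share of cells with at least 3 members at E14.5 and at E16.5 proximally and distally was 0%, 2.92% and 2.88% with 2 UMIs required, 4.32%, 45.4% and 40.2% unthinned, and 0.861%, 22.3% and 20.9% at 5000 UMIs. It was 15.1% at E16.5 proximal without epithelial-like clusters and 15.5% without the cluster led by muscle fibre genes. Without cells of at least 2 endothelial marker UMIs (also chosen after seeing the data) it was 11.5% and 10.8% in the E16.5 libraries. With 2 UMIs required, 6 of 21 pairs exceeded independence at E14.5. At resolution 0.5, 1 member was highest in a fibroblast-like cluster. Without epithelial-like clusters 1 programme gene was at least 2-fold higher distally. The cause of these shifts was not tested.

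In the E11.5 test, 8028 genes were called by edgeR, 4833 without the filter on low counts and 4879 by DESeq2, in which 41.4% of the calls were higher in sorted cells against 50.3%. *Cd34* turned to −1.38 with all filtered cells. Against 1 whole limb library, which allows no test, log2 ratios were 1.01 to 1.28 for *Cd34*, 0.91 to 1.53 for *Pi16*, 0.81 to 1.09 for *Fap*, 0.81 to 1.63 for *Clec3b* and −1.38 to 0.56 for *Ly6a*, whose direction rests on whole 2. No paired analysis was possible because each sorted group was 1 library and the groups compared share fewer than 2 replicate numbers. Comparisons across the step from E13.5 to E14.5 are confounded with the reagent kit, and those from E12.5 to E13.5 with the dissociation. With 1 library per stage or part of the limb no spread between limbs can be given. Early levels rest on few UMIs (21 of *Ly6a* and 101 of *Pi16* at E14.5), which limits their ratios.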

Other observations

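Other E16.5 cells differed in which members they held. Adipogenic-like cells (127 cells, 126 of them proximal) had 331 CPM of *Dpt*, 69.8 of *Ly6a* and 10.95 of *Pi16*. Mitotic-like cluster 0 (1246 cells) had 254 CPM of *Clec3b*, 144 of *Fap* and 23.1 of *Pi16*, and 18.9% of its cells had at least 3 members. Tenocyte-like cluster 5, whose leading genes include the mast cell genes *Cma1* and *Cpa3* beside *Tnmd* and *Scx*, was low in most members, with 12.5 CPM of *Dpt*, 0.665 of *Pi16* and 0.767 of *Ly6a*, beside 43.6 of *Fap*. Pericyte-like cells had 155 CPM of *Cd34* and 86.5 of *Clec3b*.

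*Col15a1* was distributed apart from the members. It was at 67.3 CPM in unnamed cluster 8 (1155 cells, 1135 of them distal, led by *Sema3e* and *Npnt*, with 6 of 7 chondrocyte markers raised), 52.5 CPM in chondrocyte-like cells and 29.0 CPM in fibroblast-like cluster 15, against 2.20 CPM in fibroblast-like cluster 2. *Hic1*, whose locus drives the Cre of the tracing, was at 55.5 CPM in unnamed cluster 21 (1808 cells, led by *Ephb1* and *Calb2*), at 17.7 and 16.5 CPM in fibroblast-like clusters 2 and 15, and at 2.96 CPM in chondrocyte-like cells. *Pdgfra*, a receptor used to mark mesenchymal progenitors, was at 72.9 CPM in cluster 2 and 179 CPM in cluster 15, while epithelial-like cluster 17 had 9.57 CPM.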
